A study of Morella rubra with 12 samples.

Results

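The comparison described here sets Dongkui (DK), a red cultivar of Chinese bayberry (Morella rubra), against the pale strain Baidongkui (BDK), both as ripe fruits taken 85 days after flowering. It rests on 6 of the 12 RNA sequencing libraries of the study, 3 of DK and 3 of BDK, chosen by their titles. The colour label reads black for DK and pink for BDK. The other 6 libraries, 3 of BDK at 55 days and 3 at 70 days, are used below for the spread between libraries and to place the ripe levels. Whether the 3 libraries of a group stand for different trees or fruits is not labelled, and the tests therefore use a spread between samples that may be technical only.

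The red of a ripe bayberry comes from anthocyanins, flavonoid pigments that accumulate in the vacuoles of the flesh. In plants the genes of anthocyanin synthesis, from chalcone synthase to the glycosyltransferases, are switched on together by a complex of MYB, bHLH and WD-repeat proteins, and a paler fruit can differ in the regulator, in an enzyme or in pigment transport. The files give assembly IDs without gene names, so which of the genes below belong to that pathway was not analysed here, and the labelled tissue was not checked against markers. In whole fruits, fewer cells of a type and less RNA per cell cannot be told apart.

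Levels are in FPKM, fragments scaled to gene length and library size. Of 119701 assembled genes, 16896 had at least 1 FPKM in 3 or more of the 6 ripe libraries and were tested. These made up 92.8% ± 2.93 of a DK library's summed FPKM and 94.2% ± 2.15 of a ripe BDK library's (SD, n = 3). The files hold no read counts. Relative depth, read from the steps that single reads make in low values, was lowest in DK replicate 2, at 0.880, and highest in BDK replicate 2, at 1.11. Both estimates had an SD of 0.17 on the log2 scale, against 0.029 to 0.10 for the other ripe libraries, so this rank is uncertain. The earlier description of these data found a split of the 12 libraries that crosses the groups, by genes at 0 on one side only. On one side are all BDK libraries at 55 days, replicate 1 at 70 days and ripe BDK replicates 1 and 2, and on the other are BDK replicates 2 and 3 at 70 days, ripe BDK replicate 3 and DK. Of the genes tested here, 34 were at 0 in ripe BDK replicates 1 and 2 and above 0 in the other 4 ripe libraries. Below, 8 of these 34 were called, against 11.3% of all tested genes. Their choice already sets ripe BDK replicates 1 and 2 below every DK library, which favours a call, so no conclusion is drawn from this share.

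At the ripe stage most transcripts stood at similar levels in red and pale fruits, and a minority differed in both directions. Limma's moderated test on log2(FPKM + 1) called 1910 genes (11.3% of those tested) at a Benjamini-Hochberg adjusted p below 0.05, of which 930 (5.5%) were higher and 980 (5.8%) lower in DK. Most of the called differences were small on this scale. Folds of fitted differences are those of scaled FPKM + 1, which understate folds of FPKM, above all for low genes. The median was 0.65 for the higher and -0.59 for the lower genes on the log2 scale, and differences under 1.5-fold made up 404 of the former and 487 of the latter. A difference of at least 2-fold was shown by 215 higher (1.27% of those tested) and 206 lower genes (1.22%, together 2.49%), of at least 4-fold by 44 and 35, and of at least 8-fold by 12 and 8.

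The count depended on the libraries and on the model. With the split of the libraries as a term 799 genes were called, and within the side that holds DK and BDK replicate 3 the count was 401, where the spread of the lone BDK library is borrowed from the other groups. The other side holds no DK library. With only the 6 ripe libraries in the model 564 were called, and with no filter on low values 609. Upper-quartile scaling moved the balance to 1151 higher and 786 lower genes (59.4% higher against 48.7%).

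**Figure D1:**
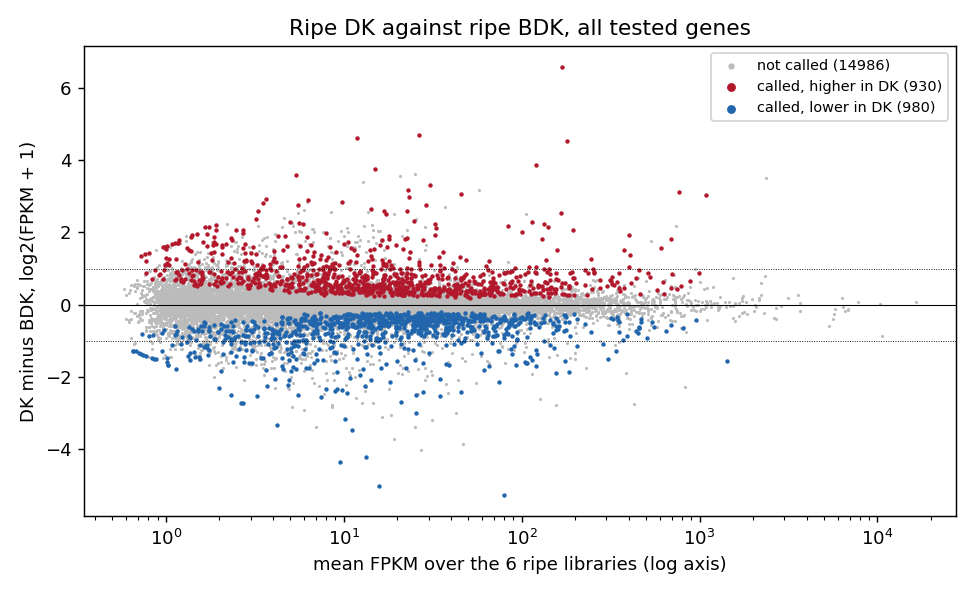
Each point is 1 of the 16896 tested genes, with the mean FPKM over the 6 ripe libraries on a log axis and the fitted difference DK minus BDK in log2(FPKM + 1). Red and blue points are the 930 and 980 genes called higher and lower in DK, and dotted lines mark 2-fold.

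Single pairs of libraries did not always show the strain. Pairs of DK libraries had 743 to 965 tested genes at least 1 apart on the log2(FPKM + 1) scale, and pairs of ripe BDK libraries 927 to 1207. A DK library and a BDK library were that far apart in 1084 to 1963 genes. The range depended on the BDK library. Against BDK replicate 1 the 3 DK libraries gave 1845, 1948 and 1963 genes, against replicate 3 they gave 1536, 1722 and 1315, and against replicate 2 they gave 1122, 1320 and 1084. By this count BDK replicate 2 was nearest to BDK replicate 3, at 927 genes. It was nearer to DK replicates 1 and 3 than to BDK replicate 1, from which it stood apart in 1207 genes. By the median difference over genes BDK replicate 2 was also nearest to BDK replicate 3, at 0.188. DK replicates 2 and 3 followed, at 0.204 and 0.207, then BDK replicate 1, at 0.210, and DK replicate 1, at 0.217. Without BDK replicate 2 the number of called genes was 2525.

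**Figure D2:**
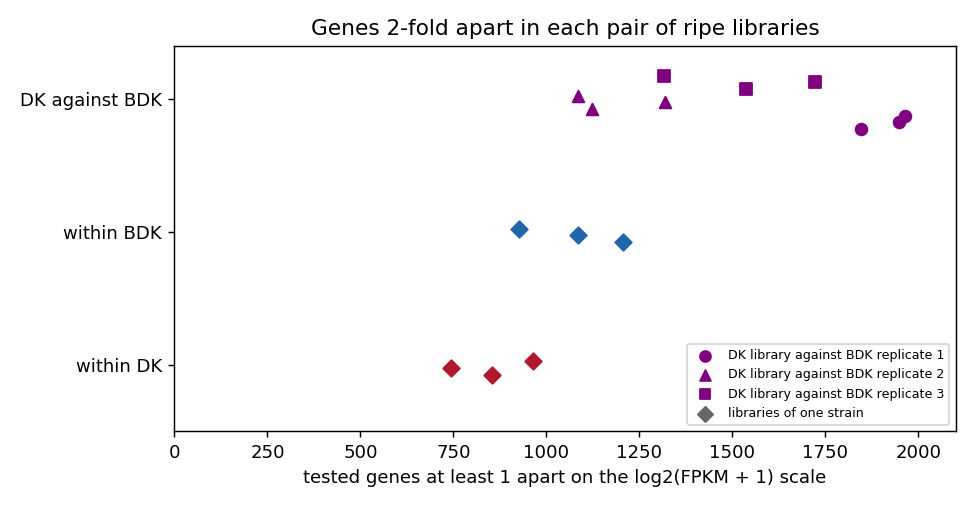
Each symbol is 1 pair of ripe libraries, placed by the number of tested genes at least 1 apart on the log2(FPKM + 1) scale. Pairs of DK with BDK replicate 2 (triangles, 1084 to 1320) lie among or next to the pairs within BDK (927 to 1207), and pairs with BDK replicate 1 (circles) lie highest.

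The libraries of pale fruits were also less alike than those of red fruits. The ripe BDK libraries lie on both sides of the split named above, and the DK libraries lie on 1 side. Ripe BDK replicates 1 and 2 lie on the same side and stood 1207 genes apart by the count above. Replicate 3, on the other side, stood 1085 genes from replicate 1 and 927 from replicate 2. The part of strain or split in this spread was not tested. The median SD of a gene over the 3 libraries was 0.17 in BDK and 0.13 in DK on the log2(FPKM + 1) scale, and the SD was larger in BDK for 10101 genes (59.8%). The order held in each of the 8 bands of level below, for which the median SD was 0.29 in BDK and 0.25 in DK among genes under 2 FPKM, and 0.22 and 0.12 among genes of 1000 FPKM or more.

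How often a gene was called depended on its level. Of the 2505 genes with a mean under 2 FPKM over the 6 libraries, 6.19% were called, and the share was 8.53% from 2 to 5, 11.3% from 5 to 10 and 11.8% from 10 to 20 FPKM. It stood at 14.8% from 20 to 50, 14.3% from 50 to 100 and 15.4% from 100 to 1000 FPKM. Among the 78 genes of 1000 FPKM or more it was 2.56%, or 2 genes. The band under 2 FPKM had a lower share than the band from 100 to 1000 FPKM under each other setting in which both held genes, with 1 exception. With upper-quartile factors taken over all genes of 1 FPKM in any library, which run from 0.521 to 3.16, the shares were 3.27% and 1.38%. A filter of 5 FPKM left no genes under 2 FPKM. Its lowest band, 199 genes from 2 to 5 FPKM, had 18.1% called, against 16.3% from 100 to 1000 FPKM. Genes with a mean under 5 FPKM pass that filter only where other libraries lie lower, which favours separated genes.

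The spread between libraries mostly ran opposite to these shares. Libraries of one strain differed by a median of 0.32 on the log2(FPKM + 1) scale for genes under 2 FPKM, against 0.40 between a DK and a BDK library. From 20 to 50 FPKM the values were 0.14 and 0.19. At 1000 FPKM or more the differences were 0.20 within and 0.20 between strains. The median SE of the fitted difference was 0.24 under 2 FPKM, 0.10 from 20 to 50 and 0.17 at 1000 or more. The part of this spread in the shares called was not tested.

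Below 1000 FPKM the called differences were largest for the lowest genes. The median called difference was 0.98 under 2 FPKM, 0.87 from 2 to 5, 0.63 from 5 to 10, 0.54 from 10 to 20, and 0.47 in both bands from 20 to 100 FPKM, without regard to sign. It was 0.61 from 100 to 1000 FPKM. At least 2-fold were 49.7% of the called genes under 2 FPKM, 10.8% from 20 to 50 and 19.5% from 100 to 1000. The smallest difference called was 0.48 in the lowest band and 0.20 from 20 to 50 FPKM, so small differences of low genes were not detectable here. This scale also understates fold changes of low genes. Of the genes with a fitted difference of at least 2-fold, called or not, 77 of 184 were called under 2 FPKM and 39 of 62 from 100 to 1000.

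**Figure D3:**
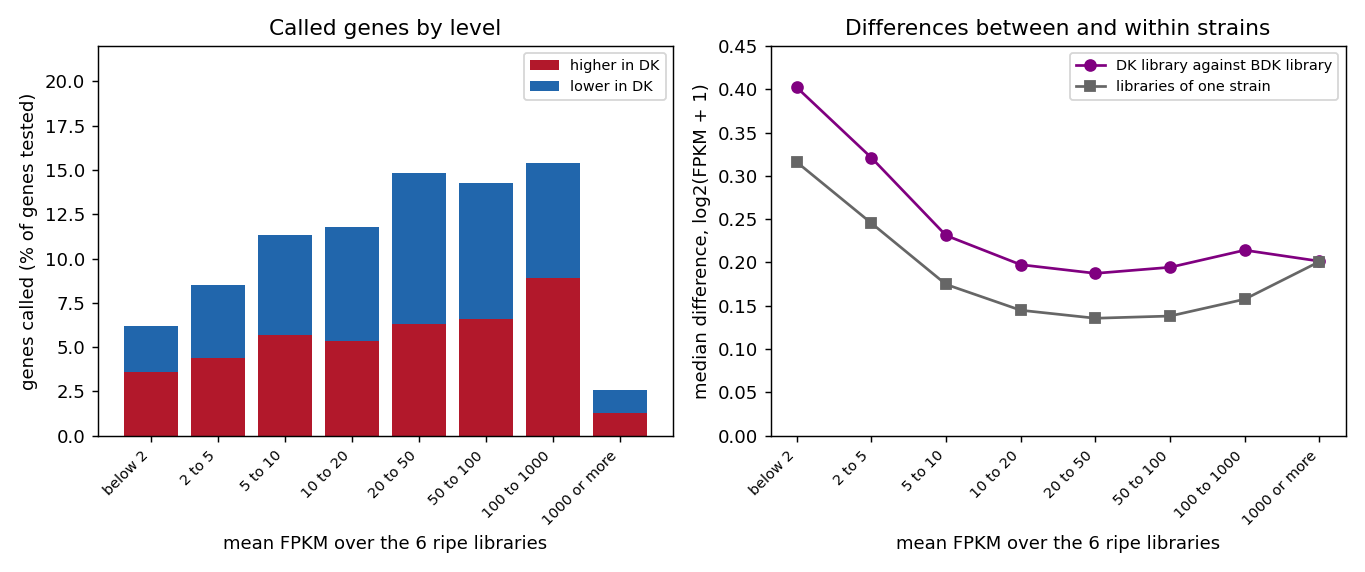
Left, the share of tested genes called in each of 8 bands of mean FPKM, split by direction, from 6.19% under 2 FPKM to 15.4% from 100 to 1000 and 2.56% at 1000 or more. Right, the median difference between pairs of libraries on the log2(FPKM + 1) scale, between strains (circles) and within a strain (squares), which meet at 0.20 in the highest band.

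The direction of the calls also varied with level. Higher in DK were 58.1% of the called genes under 2 FPKM, 42.5% from 20 to 50 and 58.0% from 100 to 1000 FPKM. With upper-quartile factors these shares were 61.6%, 54.7% and 67.4%, with the split of the libraries as a term 67.2%, 37.6% and 49.5%, and with only the 6 ripe libraries 50.8%, 39.4% and 57.4%. The majorities from 20 to 50 and from 100 to 1000 FPKM each turned under 1 of these settings, and that under 2 FPKM ran from 50.8% to 67.2%.

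The most abundant transcripts hardly separated the strains. The 78 genes of 1000 FPKM or more took 25.9% ± 0.58 of the FPKM sum of DK libraries and 26.5% ± 1.83 of that of ripe BDK libraries (SD, n = 3), and 69 of them differed by less than 1.5-fold. Only 3 reached 2-fold, and limma called 2 of these, which are described below. The third, picked out after its values were seen, was at 9702, 156 and 1576 FPKM in the DK libraries and at 0, 978 and 1707 in the ripe BDK libraries. Its groups overlap widely, and its adjusted p was 0.40. From 100 to 1000 FPKM 1300 genes held 41.0% ± 0.74 in DK and 40.0% ± 0.81 in BDK, and 116 of them were higher and 84 lower in DK.

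Nearly every called gene was separated in all 6 libraries. The calls rest on these same libraries and favour genes that separate them, so this is a description and no independent support. For 923 of the 930 higher genes the lowest DK library lay above the highest ripe BDK library, and for 976 of the 980 lower genes the highest DK library lay below the lowest BDK library. Such separation alone was frequent, at 5174 of all tested genes (30.6%), 2404 with DK higher (14.2%) and 2770 with DK lower (16.4%), and 3275 of these were not called. The 11 called genes whose libraries overlap differed by 0.34 to 2.26, and 5 of them had a mean of 2 to 5 FPKM. Leaving out BDK replicate 2 would separate 8 of the 11 and leaving out DK replicate 3 would separate 7, and for each other library the number was 1 to 3.

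The distance between the groups was mostly narrow. Measured from the nearest library of one strain to the nearest of the other, the median gap of called genes was 0.30 on the log2(FPKM + 1) scale. In 146 called genes, 83 higher and 63 lower in DK, each of the 9 pairs of a DK and a BDK library differed by at least 1 on this scale. A gap of at least 2 was shown by 19 higher and 11 lower genes, together 0.18% of those tested. Gaps of at least 1 made up 24.5% of the called genes under 2 FPKM, 4.65% from 20 to 50 and 8.0% from 100 to 1000 FPKM.

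A stricter view asks which genes were called whichever ripe library was left out. Limma called 664 of the 1910 genes (34.8%) in the same direction in all 6 such fits, 341 higher and 323 lower in DK. Among genes called at 2-fold or more 232 of 421 (55.1%) held in this way, 135 higher and 97 lower, and among those under 2-fold 432 of 1489 (29.0%). The share went from 31.6% under 2 FPKM to 41.5% from 100 to 1000 FPKM. Of the 664 genes, 527 were also called with the split of the libraries as a term and 401 with only the 6 ripe libraries in the model, and 360 under both.

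Some transcripts were listed in 1 strain only. At least 1 FPKM in all 3 DK libraries and 0 in all ripe BDK libraries was found for 30 genes, of which 24 were called. The reverse was found for 26, of which 22 were called. Together these were 56 genes (0.33% of those tested), of which 46 were called (0.27% of those tested). They were mostly low, with a median over genes of 2.50 FPKM in DK for the 30 and 2.06 FPKM in BDK for the 26. Most were not missing from BDK as a whole. Of the 30 genes of DK, 21 were above 0 in at least 1 BDK library at 55 or 70 days, and 9 were at 0 in all 9 BDK libraries. Of the 26 genes of ripe BDK, 23 were above 0 in younger BDK fruits. A value of 0 in these files is no proof of absence, since low values near 1 read can be missed.

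The gene with the widest gap among those higher in DK was c107382_g1. It was at 327, 337 and 345 FPKM in the DK libraries and at 1.87, 4.11 and 2.05 in the ripe BDK libraries. All 3 DK libraries were high and close together, and the nearest libraries of the strains were 6.01 apart on the log2(FPKM + 1) scale. The younger BDK libraries lay between, at 58.6, 64.3 and 64.5 FPKM at 55 days and 19.7, 13.6 and 32.9 at 70 days. The fitted log2 difference was 6.58 ± 0.28 (SE; limma, adjusted p = 3.98e-06), and the gene was called under all 18 alternatives, with an adjusted p of 0.014 at most.

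The gene with the largest difference in FPKM among those higher in DK was c47647_g1, a transcript of ripe fruit. It was at 2140, 2118 and 1577 FPKM in DK and at 352, 183 and 190 in ripe BDK, so the strains were far from overlapping. In younger BDK fruits it was almost absent, at 0.07 to 0.32 FPKM at 55 days and 0.54 to 3.47 at 70 days. Among the tested genes its mean ranked 32 in DK, at 1945 ± 319 FPKM, and 517 in ripe BDK, at 241 ± 95.8 FPKM (SD, n = 3), a ratio of 8.06. The log2 difference was 3.03 ± 0.36 (SE; limma, adjusted p = 0.0015), called under all 18 alternatives with an adjusted p of 0.025 at most. The other tested gene of its assembly cluster (the IDs that share the part before _g) was at 7.07, 6.17 and 2.48 FPKM in DK, 0.89, 1.10 and 0.85 in ripe BDK and 0 in all younger libraries. It was called in the same direction, at 1.61 ± 0.27 (limma, adjusted p = 0.0063). Genes of 1 cluster can share reads, so their separate levels are uncertain.

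Among genes lower in DK the widest gap was that of c48981_g2, at 37.3, 42.1 and 15.1 FPKM in ripe BDK. Every DK library lists it at 0. Younger BDK libraries were split, with 21.3 FPKM in 1 library at 55 days, 20.5 in 1 library at 70 days and 0 in the other 4. No fold is given against a group at 0. The adjusted p from limma was 0.036, and 9 of the 18 alternatives gave a value above 0.05, up to 0.22, among them each of the 6 fits without 1 ripe library. With only the ripe libraries in the model, which leaves out the split younger ones, it was 0.0058. The other tested gene of its cluster stood at 14.7 to 19.5 FPKM in all 12 libraries and was not called (limma, adjusted p = 0.35).

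The largest difference in FPKM among genes lower in DK was that of c49047_g1, at 701, 454 and 991 FPKM in DK and 1880, 1267 and 3217 in ripe BDK. The groups do not overlap, but the nearest libraries were only 0.27 apart on the log2(FPKM + 1) scale. In younger BDK fruits it was at 209 to 302 FPKM at 55 days and 762 to 1391 at 70 days, and the DK values lie near the latter. The log2 difference was -1.56 ± 0.39 (SE; limma, adjusted p = 0.031), with a range of 0.014 to 0.13 over the 18 alternatives, of which 9 were above 0.05. It kept its call without BDK replicate 2 or DK replicate 3 and lost it without each other ripe library, where the adjusted p was 0.079 to 0.10.

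**Figure D4:**
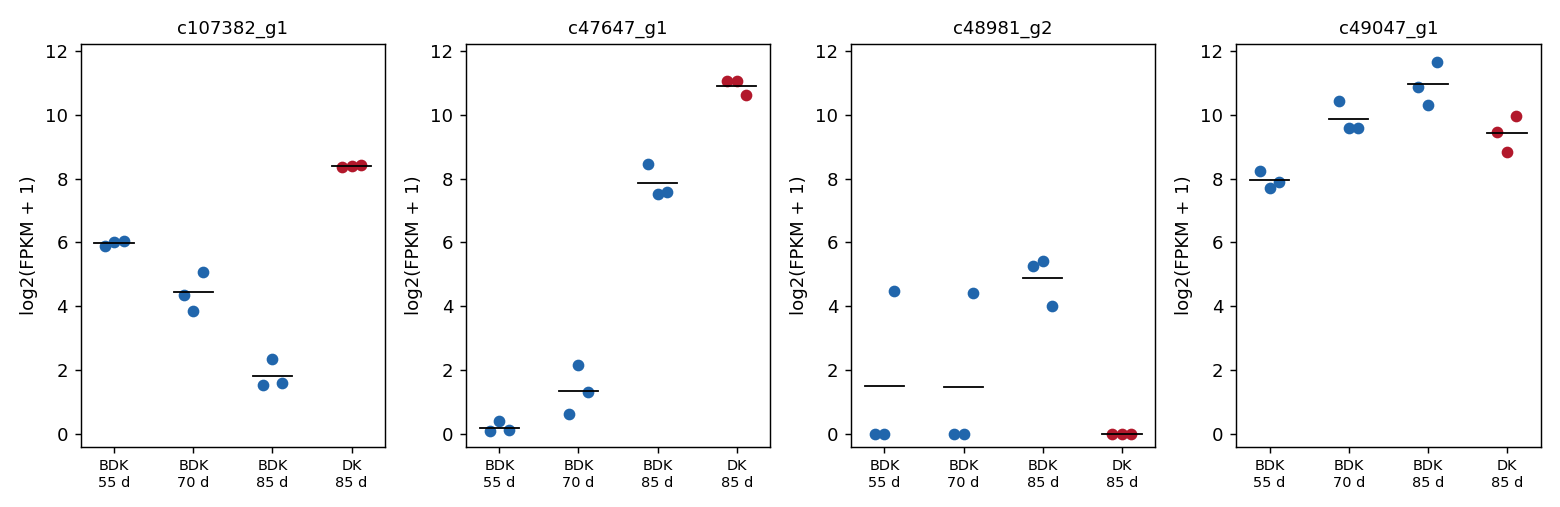
Levels of the 4 named genes as log2(FPKM + 1) in each of the 12 libraries, with points for libraries, lines for group means, blue for BDK and red for DK. DK lies above all BDK libraries for c107382_g1 and c47647_g1, at 0 for c48981_g2, and below ripe BDK, near BDK at 70 days, for c49047_g1.

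The younger BDK libraries were set beside the ripe levels of these genes. Their levels did not enter the difference that chose the genes, but their spread entered the model. Called at 2-fold or more without overlap were 417 genes (2.47% of those tested), 214 higher (1.27%) and 203 lower (1.2%). Of the 214 higher genes, 94 were higher in every DK library than in any of the 9 BDK libraries of all stages. In 82 of them the DK mean did not exceed the higher of the BDK means at 55 and 70 days. Of the 203 lower genes, 42 were lower in every DK library than in any BDK library, and in 123 the DK mean was not below the lower of those 2 means. Together the 214 genes took 1.66% ± 0.11 of the FPKM sum of DK libraries and 0.44% ± 0.11 of that of ripe BDK libraries, the values that chose them, and 0.76% ± 0.059 in BDK at 70 days and 0.89% ± 0.031 at 55 days (SD, n = 3). The 203 genes held 0.40% ± 0.046 in DK and 1.18% ± 0.12 in ripe BDK, and 0.51% ± 0.073 and 0.58% ± 0.022 in BDK at 70 and 55 days. Since the DK values helped to choose both lists, these sums and the counts above are descriptions only.

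**Figure D5:**
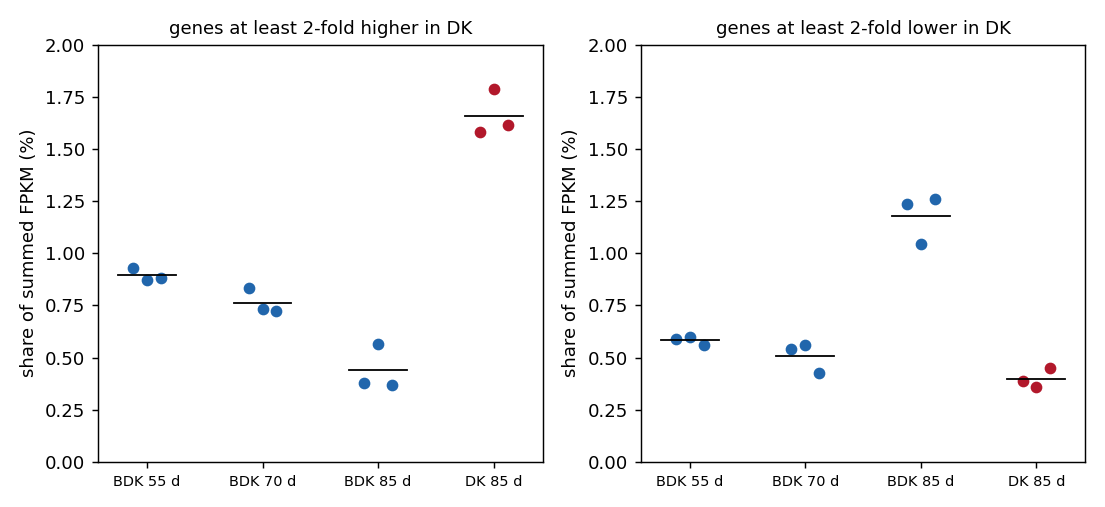
Share of the summed FPKM held by the 214 genes at least 2-fold higher (left) and the 203 genes at least 2-fold lower in DK (right), with points for libraries and lines for group means. The difference between ripe BDK and DK chose the genes, while BDK at 55 and 70 days entered the model through its spread.

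Assembly clusters offer a view of what the called genes share. Of the tested genes 10428 were alone in their cluster, of which 11.8% were called, and 6468 had at least 1 tested partner, of which 10.4% were called. In 105 clusters 2 or more genes were called, all in 1 direction in 77 and in both directions in 28. At 2-fold or more, 20 clusters had several called genes in 1 direction and 0 had both directions. With FPKM summed over each cluster, 1508 of 12991 clusters were called by limma (11.6%), 752 higher and 756 lower in DK.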

How the data were processed

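RNA was sequenced from fruits of 4 groups of 3 libraries, and the titles gave the group and replicate number. The deposited values are FPKM per gene, with 2 decimals, per the file headers. How the authors assembled, aligned, quantified, annotated and filtered is not given in the sources used here. Since FPKM depends on all other genes of a library, the values were divided by trimmed-mean factors (trimming 30% of log ratios and 5% of levels on either side, for genes of 1 FPKM or more), which ran from 0.895 to 1.14. Genes of at least 1 FPKM in 3 or more of the 6 ripe libraries were kept. Log2(FPKM / factor + 1) was fitted with limma 3.58.1 in R 4.3.3 with all 12 libraries and 4 groups, which share 1 estimate of the spread, and variances that follow the level. P-values were adjusted by Benjamini-Hochberg over all tested genes, with 0.05 as the threshold. Printed FPKM levels, bands of level and shares use the deposited values. Overlaps and gaps use the scaled ones.

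The files hold no counts, so total depth is unknown and values carry no counting interval. Relative depth was the most frequent log2 ratio of low values (0.3 to 1.5 FPKM) between pairs of libraries. No pair of ripe libraries had equal values for more than 1.32% of the genes. The procedure was tested on simulated data. Alternatives were other scalings, pseudocounts of 0.1 and 5, a filter of 5 FPKM or none, the 6 ripe libraries alone, the replicate number as a block, the split of the libraries as a term, each ripe library left out and sums over assembly clusters. The fit of 1 side of the split and upper-quartile factors over a wider set of genes were added after seeing the data.

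For each direction 2 genes are named by rule, among called genes without overlap whose higher group mean was 10 FPKM or more: that with the widest gap between the nearest libraries of the strains, and that with the largest difference in mean FPKM. The comparison, bands, rules and tests were chosen with earlier results of these data known. No gene lists were used, since the gene IDs come without names.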

Additional observations from a re-analysis of the deposited data

How the results depend on the processing

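No called gene changed sign under any alternative fitted to single genes, but many of these alternatives could hardly change it. Other filters, the 6 ripe libraries alone and the replicate block leave the fitted difference as it is by construction. Leaving out 1 library cannot turn a gene without overlap, and 1899 of the 1910 called genes are of that kind. Numbers of called genes below are given in the order all, higher in DK, lower in DK, under 5 FPKM, at 50 FPKM or more, and at 2-fold or more without overlap. They were 1910, 930, 980, 403, 399 and 417 in the fit reported. With only the 6 ripe libraries they were 564, 260, 304, 118, 125 and 244, and with no filter on low values 609, 323, 286, 122, 145 and 225, over 65853 genes tested. With the split of the libraries as a term they were 799, 399, 400, 161, 193 and 302, and within 1 side of it 401, 224, 177, 45, 118 and 242. With upper-quartile factors over the wider set of genes they were 370, 173, 197, 172, 28 and 274, and 1094 genes did not overlap in place of 5174. A filter of 5 FPKM left 36 called genes under 5 FPKM and 263 at 2-fold without overlap. A pseudocount of 5 left 166 genes at 2-fold without overlap, and one of 0.1 gave 495. Leaving out 1 ripe library gave 966 to 2525, 490 to 1314, 476 to 1211, 190 to 601, 217 to 493 and 276 to 663, and 6440 to 7671 genes without overlap. The lowest count of all calls came without DK replicate 1, the highest without BDK replicate 2, and the others were 980 and 1092 without DK replicates 2 and 3 and 981 and 1205 without BDK replicates 1 and 3. The fits without a filter, without a library or with fewer libraries test more genes or hold fewer samples by construction. The cause of the other shifts was not tested.

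The replicate numbers are not known to pair the libraries. Same-numbered DK and ripe BDK libraries deviated from their group means together at r = 0.14, 0.034 and 0.35 across genes. Between differently numbered ones r ran from -0.29 to 0.17. These values are tied to each other, since deviations from a group mean cancel, and whether the numbers pair the libraries was not tested. With the replicate number as a block 1654 genes were called, 1512 of them among the 1910. The remaining scalings and pseudocounts gave 1685 to 1937 called genes. The files hold no counts, so how far depth limits the calls of low genes is unknown.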
